A study of Oryza sativa Japonica Group with 12 samples.

Results

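LOC4331887 is a protein-coding gene on rice chromosome 3 that 1 probe set of the array measured. It was examined over all 4 lines and 12 arrays, as 1 of the 36643 probe sets in the deposited table. The gene was chosen from these same values: of all probe sets, only the one for LOC4331887 and 1 other, which the platform annotation pairs with no gene and which is called the companion probe set here, were higher by over 3 on the log2 scale in both overexpressing lines than in their null sister lines. The gene table used here gives LOC4331887 no other symbol or synonym, and no measured probe set carried the name OsbHLH044, so both are described without a name.

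Expression was measured in stem bases of 6-day-old rice plantlets with 1-colour Affymetrix arrays. All 4 lines carried the crl1 mutation in cultivar Taichung 65. Lines OsbHLH044_crl1OE_67.1.11.7 (here OE 67.1) and OsbHLH044_crl1OE_67.5.9.12 (OE 67.5) overexpressed OsbHLH044 from the construct pC5300.OE. Their null segregant sisters without T-DNA were N_OsbHLH044_crl1OE_67.1.1.5 (null 67.1) and N_OsbHLH044_crl1OE_67.5.13.4 (null 67.5). Each overexpressing line and its null sister made a couple, and the labels call the couples independent. Each line had 3 arrays, 1 for each independent repetition, and the RNA of an array came from 8 to 12 pooled stem bases. The labels do not give the promoter of the construct, so the cells in which it was active are not known here.

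The stem base is the part of the rice seedling from which crown roots, the shoot-borne roots of cereals, emerge. CRL1, the gene affected in the crl1 mutant, encodes an LBD-type transcription factor needed to start crown roots, and the mutant forms none. OsbHLH044 belongs to the basic helix-loop-helix (bHLH) family, whose members bind DNA as dimers at short E-box motifs. In a design with null segregants, plants that lost the transgene by segregation serve as controls with the same tissue culture history. Array levels are given on the log2 scale after RMA, so a difference of 1 is a doubling, and levels of separate probe sets cannot be ranked against each other. The shoot meristem marker OSH1, a homeobox gene that marks undifferentiated meristem cells, lay at 5.25 to 5.67 over the 12 arrays. The green tissue marker RBCS, the small subunit of Rubisco, lay at 7.73 to 8.45. Both exceeded each array's median. That median is a rough guide only, because levels of separate probe sets cannot be ranked against each other. The measured markers taken for crown and root meristem lay on both sides of it. WOX11 (5.65 to 6.08) and SHR1 (5.86 to 6.40) exceeded each array's median. QHB, a marker of the quiescent centre of the root tip (2.79 to 3.51), and SCR1 (3.04 to 4.11) were under it. The seed storage protein gene GLUA1 (2.63 to 3.01) was also under each array's median. Of the 19 markers examined 14 were measured, and none passed between overexpressing and null lines in limma (lowest adjusted p = 0.215).

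LOC4331887 was high in both overexpressing lines and low in both null lines. Its log2 level was 9.65, 9.76 and 9.64 on the 3 arrays of OE 67.1, against 6.25, 6.52 and 6.14 on those of null 67.1. In the other couple it was 9.46, 9.45 and 9.59 in OE 67.5, against 6.09, 6.47 and 6.21 in null 67.5. The highest null array in each couple lay far below the lowest overexpressing array, by 3.13 in couple 67.1 and by 2.99 in couple 67.5. The means were 9.68 ± 0.065 in OE 67.1 and 6.30 ± 0.19 in null 67.1, and 9.50 ± 0.075 in OE 67.5 and 6.25 ± 0.19 in null 67.5 (SD, n = 3 each). The difference was 3.38 ± 0.12 in couple 67.1 and 3.24 ± 0.12 in couple 67.5 (log2, SE from limma), which are 10.4-fold and 9.48-fold on the linear scale of the signal. Averaged over both couples it was 3.31 ± 0.083, or 9.93-fold. These differences chose the gene and are given with no test. The difference in couple 67.1 minus that in couple 67.5 was 0.14 ± 0.17. Over the whole array 7 probe sets (0.0191%) passed an adjusted p of 0.05 in limma for that quantity, and 0 did without null 67.1 replicate 2 or 3 or OE 67.5 replicate 3.

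**Figure D1:**
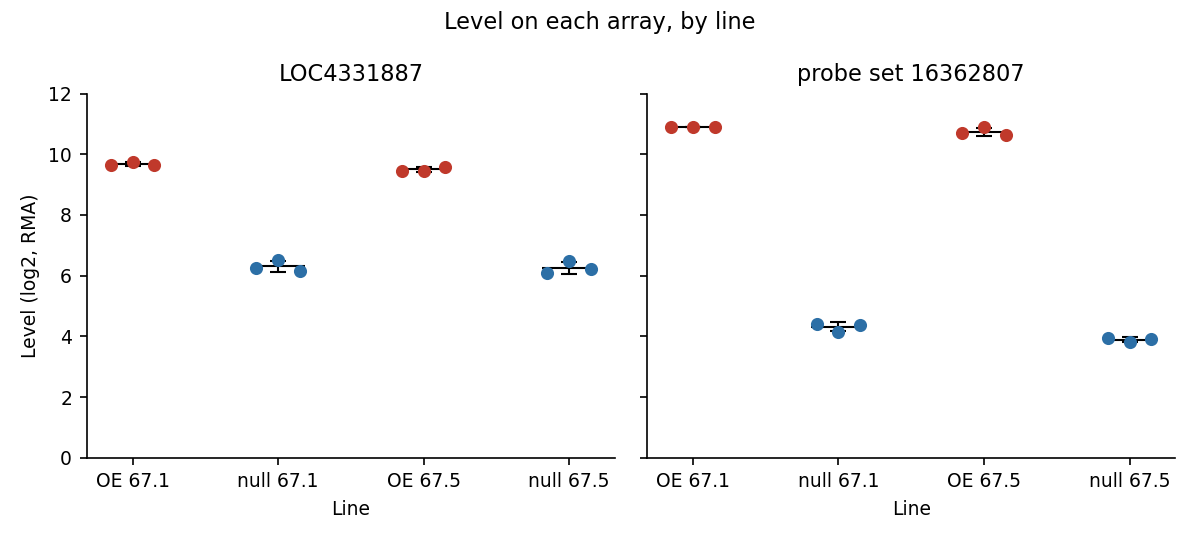
Log2 level after RMA (vertical axis) on each of the 12 arrays (points) by line (horizontal axis), for LOC4331887 (left) and the companion probe set (right, titled with its array identifier), with the mean and SD of each line in black. Red points are overexpressing lines and blue points null lines. LOC4331887 lies between 9.45 and 9.76 in the overexpressing lines and between 6.09 and 6.52 in the null lines. The companion probe set lies between 10.6 and 10.9 in the overexpressing lines and between 3.82 and 4.42 in the null lines.

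The companion probe set separated the same lines with a wider gap. It read 10.88, 10.91 and 10.90 in OE 67.1, against 4.42, 4.14 and 4.39 in null 67.1. In OE 67.5 it read 10.69, 10.89 and 10.64, against 3.96, 3.82 and 3.91 in null 67.5. No overexpressing array came within 6.47 of a null array in couple 67.1 or within 6.68 in couple 67.5. The difference was 6.58 ± 0.096 in couple 67.1 and 6.84 ± 0.096 in couple 67.5 (log2, SE), or 95.6-fold and 115-fold. Over both couples it was 6.71 ± 0.068, which is 105-fold. The means of the null lines, 4.32 in null 67.1 and 3.90 in null 67.5, lay under the array medians of 4.34 to 4.39. No detection calls were used, so the null levels were not shown to exceed the background of the array, and the folds hold for the deposited values only. The difference in couple 67.1 minus that in couple 67.5 was -0.26 ± 0.14. For LOC4331887 it was 0.14 ± 0.17, which is smaller than its SE, so the opposite signs of the 2 carry little weight and were not tested. The files pair this probe set with no gene and give no probe sequences, so whether either probe set measures a transcript of the introduced construct was not tested.

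The pair stood apart in size from every other probe set that was higher in both couples. They were 2 of 36643 probe sets, or 0.00546%, and this count only restates how they were chosen. The next 3 by the smaller of the differences in the couples, all outside the threshold of 3, were probe set 16343337, gene LOC4340085 and probe set 16209338. Probe set 16343337 was higher by 1.03 in couple 67.1 and by 1.02 in couple 67.5, and its arrays overlapped in couple 67.1, at 6.15, 5.98 and 5.61 in OE 67.1 against 3.46, 4.67 and 6.52 in null 67.1. LOC4340085 was higher by 1.04 in couple 67.1 and 0.92 in couple 67.5, and its arrays overlapped in both. Probe set 16209338 was higher by 1.29 in couple 67.1 and 0.92 in couple 67.5, with arrays separated in both. Above a difference of 1 in both couples there were 3 probe sets, and above 0.5 there were 52. In the opposite direction 6 probe sets were lower by over 1 in both couples and 1 was lower by over 3. All overexpressing arrays lay above all null arrays in both couples for 177 probe sets, or 0.483%.

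**Figure D2:**
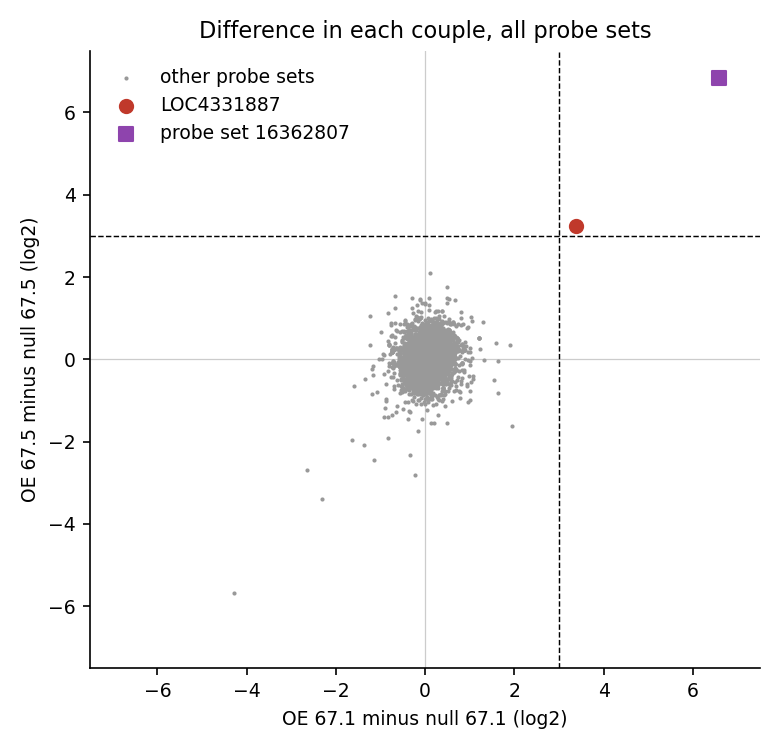
Difference between overexpressing and null line (log2) in couple 67.1 (horizontal axis) and couple 67.5 (vertical axis) for all 36643 probe sets, with dashed lines at the threshold of 3. LOC4331887 (red circle, 3.38 and 3.24) and the companion probe set (purple square, 6.58 and 6.84) lie alone in the upper right, and the next probe set by the smaller difference reaches 1.02. The point farthest to the lower left is probe set 16270679.

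The lines were ordered by their mean LOC4331887 level as OE 67.1, OE 67.5, null 67.1 and null 67.5. Neighbours within a class could not be told apart by limma with Benjamini-Hochberg adjustment over all 36643 probe sets, a comparison that did not choose the gene. OE 67.1 exceeded OE 67.5 by 0.18 ± 0.12 (log2, SE, 95% interval -0.073 to 0.44, adjusted p = 0.345). All 3 arrays of OE 67.1 lay above all 3 of OE 67.5, by a narrow gap between 9.64 and 9.59. Null 67.1 exceeded null 67.5 by 0.049 ± 0.12 (95% interval -0.21 to 0.31, adjusted p = 0.861), and their arrays overlapped. These intervals leave room for a difference of up to 1.36-fold between the overexpressing lines and 1.24-fold between the null lines. Of all probe sets, 61 (0.166%) passed an adjusted p of 0.05 between the overexpressing lines and 42 (0.115%) between the null lines. The number of probe sets that passed against the null sister was 6 (0.0164%) in couple 67.1 and 33 (0.0901%) in couple 67.5. Those of the couples include LOC4331887 and the companion probe set, which were chosen by that same comparison. These counts leaned on single arrays: the count between the overexpressing lines was 15 without OE 67.5 replicate 3 and 305 without OE 67.1 replicate 3, that between the null lines was 3 without null 67.1 replicate 1 and 990 without null 67.5 replicate 1, and that in couple 67.5 was 11 without OE 67.5 replicate 2 or 3. With array weights 186 passed between the overexpressing lines and 240 between the null lines. The model behind these counts held no term for the repetition number. With that number as a block 1554 passed between the overexpressing lines and 354 between the null lines, though the labels do not make it a shared batch.

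The companion probe set kept the same order of lines. OE 67.1 exceeded OE 67.5 by 0.15 ± 0.096 (log2, SE, 95% interval -0.057 to 0.37, limma adjusted p = 0.337), and their arrays overlapped. Null 67.1 exceeded null 67.5 by 0.42 ± 0.096 (95% interval 0.21 to 0.63), with all 3 null 67.1 arrays above all 3 null 67.5 arrays. That difference had an unadjusted p of 0.00104 in limma and did not pass after adjustment (adjusted p = 0.126).

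The spread of LOC4331887 among arrays was wider in the null lines than in the overexpressing lines. Its SD was 0.065 in OE 67.1 and 0.19 in null 67.1, where the median SD of all probe sets was 0.13 in OE 67.1 and 0.11 in null 67.1. In couple 67.5 its SD was 0.075 in OE 67.5 and 0.19 in null 67.5, against medians of 0.13 in OE 67.5 and 0.14 in null 67.5. The spread was not tested. In both null lines repetition 2 had the highest LOC4331887 level (6.52 in null 67.1 and 6.47 in null 67.5) and the lowest level of the companion probe set (4.14 in null 67.1 and 3.82 in null 67.5). In the overexpressing lines the highest LOC4331887 array was repetition 2 of OE 67.1 (9.76) and repetition 3 of OE 67.5 (9.59), and the highest array of the companion probe set was repetition 2 in both (10.91 in OE 67.1 and 10.89 in OE 67.5).

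The genes beside LOC4331887 on chromosome 3 differed little between overexpressing and null lines. The 10 nearest measured genes on each side were taken in the gene order of the RefSeq table for assembly ASM3414082v1. Over both couples 10 of the 20 had a higher mean with overexpression and 10 a lower one, with a median of 0.00043 and a range of -0.18 to 0.15 (log2), where the median of all probe sets was 0.010. None of the 20 passed in limma over both couples (lowest adjusted p = 0.66, 0 at an unadjusted p under 0.05), where 25 of all probe sets did (0.0682%, or 13 without OE 67.5 replicate 3). None passed within either couple, between the null lines, between the overexpressing lines or for the difference between the couples. At an unadjusted p under 0.05 there were 0 in couple 67.1 (3.27% of all probe sets), 1 of 20 in couple 67.5 (9.33% of all), 2 of 20 between the null lines (16.3% of all), 4 of 20 between the overexpressing lines (23.2% of all) and 0 for the difference between the couples (4.19% of all). With 20 genes, 1 gene is 5% of the list, so these counts lay near the shares of all probe sets. They are not a result about the neighbours. Overexpressing and null arrays were separated for 0 of the 20 in couple 67.1, where 9.03% of all probe sets were, and for 2 of the 20 in couple 67.5, where 13.7% were.

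The gene next to LOC4331887 on one side, LOC4331886, had 4.37, 4.01 and 4.08 in OE 67.1 against 4.43, 4.27 and 3.95 in null 67.1. It had 3.89, 3.75 and 3.87 in OE 67.5 against 4.04, 4.16 and 4.17 in null 67.5, so its arrays overlapped in couple 67.1 and were separated, lower with overexpression, in couple 67.5. Its difference over both couples was -0.18 ± 0.092 (limma adjusted p = 0.66). The gene next to LOC4331887 on the other side, LOC4331888, had 6.19, 6.65 and 6.74 in OE 67.1 against 6.32, 6.65 and 6.64 in null 67.1. It had 6.76, 6.83 and 6.66 in OE 67.5 against 6.47, 6.31 and 6.57 in null 67.5, and was separated upward in that couple. Its difference over both couples was 0.15 ± 0.10 (limma adjusted p = 0.748). The genes next but 1 were LOC4331884, at 0.0050 ± 0.095, and LOC4331890, at 0.070 ± 0.090. LOC4331890 is Hox13, a homeobox gene and the only neighbour with an informative name. Arrays of both overlapped in both couples.

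**Figure D3:**
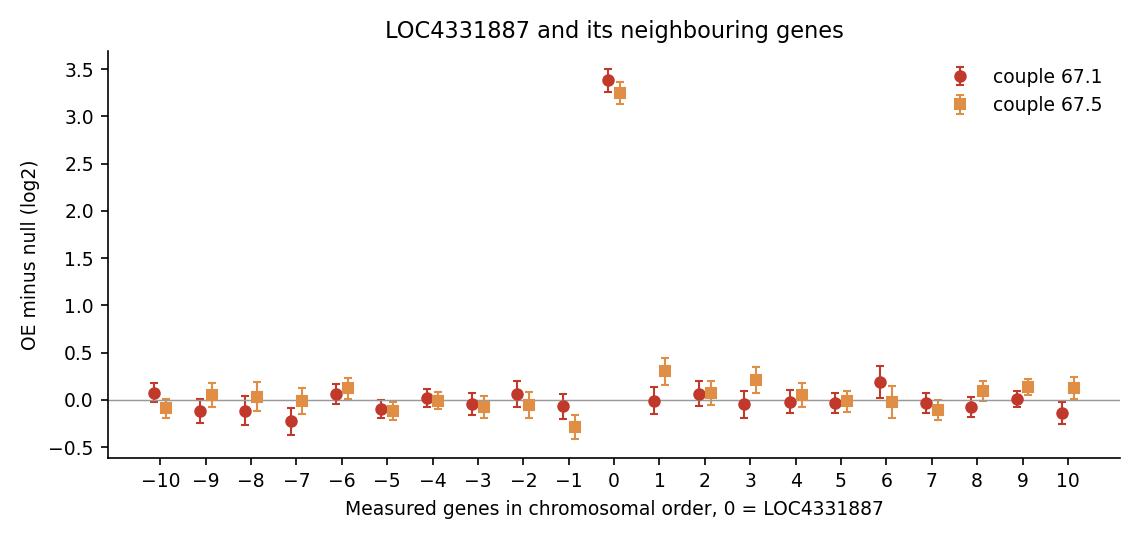
Difference between overexpressing and null line (log2, vertical axis; error bars are SE from limma) for LOC4331887 at position 0 and the 10 nearest measured genes on each side in chromosomal order (horizontal axis), with circles for couple 67.1 and squares for couple 67.5. LOC4331887 stands at 3.38 and 3.24, and the neighbours lie between -0.29 and 0.30 in both couples.

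Genes that the table names as bHLH factors, the family of the overexpressed factor, were examined next to LOC4331887. All 17 of them were measured, and OsbHLH044 was not among them. The list holds only genes with bHLH in a name given by the gene table, so it is not the whole family. LOC4331887 has no such name there, and whether it belongs to the family was not examined. Over both couples 8 had a higher mean with overexpression and 9 a lower one, with a median of -0.020 and a range of -0.23 to 0.26, against 3.31 for LOC4331887. None passed in limma over both couples, within either couple, between the null lines, between the overexpressing lines or for the difference between the couples. At an unadjusted p under 0.05 there was 1 over both couples, or 5.88% against 8.05% of all probe sets. There were 3 in couple 67.5 (17.6% against 9.33% of all) and 4 between the overexpressing lines (23.5% against 23.2%). There were 0 in couple 67.1 (3.27% of all), between the null lines (16.3% of all) and for the difference between the couples (4.19% of all). RAI1 (LOC4331538), a bHLH factor of rice immunity, had the smallest p. It read 6.19, 6.25 and 6.44 in OE 67.1 against 6.32, 6.61 and 6.39 in null 67.1, and 6.40, 6.51 and 6.17 in OE 67.5 against 6.69, 6.65 and 6.67 in null 67.5. Its difference over both couples was -0.23 ± 0.078 (limma adjusted p = 0.51), with overlapping arrays in couple 67.1. The next was bHLH080 (LOC4346166) at 0.26 ± 0.14 (limma adjusted p = 0.686).

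The couples differed in how many bHLH genes had separated arrays. In couple 67.5 the overexpressing arrays all lay above the null arrays for 4 of the 17 and below them for 5, or 52.9% in all, where 13.7% of all probe sets were separated. In couple 67.1 none of the 17 was separated, where 9.03% of all probe sets were. Neither the share nor the difference between the couples was tested. Some separations in couple 67.5 were very narrow. The gap was 0.0073 for bHLH081 (LOC4347540), higher in OE 67.5. TDR (LOC4328113) read at most 2.69 in OE 67.5 and at least 2.72 in null 67.5. Of the 17 genes, 3 had an unadjusted p under 0.05 in limma in that couple. The examples that follow were chosen after their values were seen and are among the larger differences. BU1 (LOC4340551), a small helix-loop-helix protein of brassinosteroid response, read 5.77, 6.25 and 5.89 in OE 67.5 against 5.67, 5.39 and 5.54 in null 67.5, a difference of 0.44 ± 0.20. OsbHLH148 (LOC4334060), a factor of jasmonate signalling and drought response, read 3.71, 3.42 and 3.59 in OE 67.5 against 3.996, 3.85 and 3.77 in null 67.5, a difference of -0.30 ± 0.13. In couple 67.1 BU1 differed by -0.067 ± 0.20 and OsbHLH148 by 0.014 ± 0.13.

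**Figure D4:**
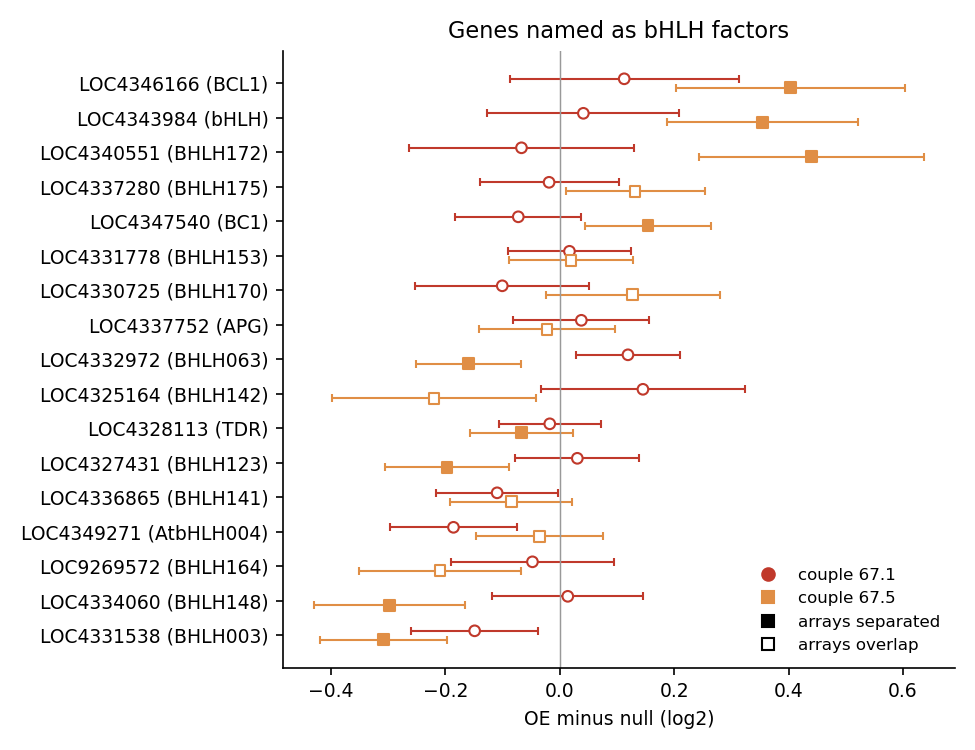
Difference between overexpressing and null line (log2, horizontal axis; error bars are SE from limma) for the 17 genes named as bHLH factors, ordered by the mean over both couples, with circles for couple 67.1 and squares for couple 67.5. Filled symbols mark genes whose 3 overexpressing arrays all lie on 1 side of the 3 null arrays, which holds for 9 genes in couple 67.5 and 0 in couple 67.1.

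Probe sets with the most similar pattern were sought by Pearson's r with LOC4331887 over the 12 arrays, among the 22684 probe sets that ranged over at least 0.5. Since the arrays of LOC4331887 fall into a high and a low cluster, this r mostly measures how cleanly a probe set separates overexpressing from null arrays, and it is given as a description. The companion probe set had the highest r (0.995) and was the only one above 0.9. Once each line's mean was subtracted, its r with LOC4331887 was -0.76, at rank 22617 from the highest. The high r over the 12 arrays thus came from the line means and does not show that the 2 varied together among repetitions. Among the 13217 probe sets paired with 1 gene the highest values belonged to LOC4343927 (r = 0.853), LOC9270413 (0.85), LOC4336616 (0.834), LOC4332074 (0.833) and LOC9266913 (0.831). None of them has an informative name. All 5 had separated arrays in both couples, and their differences over both couples lay between 0.24 and 0.48, far under that of LOC4331887. The largest, LOC4336616, read 6.51, 6.67 and 6.66 in OE 67.1 against 6.24, 6.14 and 6.21 in null 67.1, and 6.73, 6.995 and 6.58 in OE 67.5 against 5.98, 6.19 and 6.49 in null 67.5. Only 2 of these 5 genes were also among the first 5 by Spearman's rho, and 1 after a further quantile normalization.

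More probe sets followed the mirror image of LOC4331887, with 9 at an r under -0.9, though none matched the companion probe set's r in size. The unannotated probe set 16270679 had the lowest r (-0.977). It read 3.51, 3.52 and 3.84 in OE 67.1 against 7.20, 7.80 and 8.69 in null 67.1, and 3.47, 3.45 and 3.27 in OE 67.5 against 9.29, 8.29 and 9.60 in null 67.5. Its difference over both couples was -4.97 ± 0.25, which is larger in size than that of LOC4331887. Probe set 16342606, also unannotated, came next (r = -0.976, difference -2.68 ± 0.19).

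Among genes the lowest r belonged to LOC4337962 (-0.926), LOC4330362 (-0.916), ICL (LOC4343441, -0.913), TIP1;2 (LOC4324303, -0.905) and LOC4324872 (-0.901). All 5 had separated arrays, lower with overexpression, in both couples, which follows from how they were chosen. LOC4337962 read 5.90, 5.72 and 5.83 in OE 67.1 against 6.30, 6.23 and 6.21 in null 67.1, and 5.98, 5.95 and 5.97 in OE 67.5 against 6.46, 6.35 and 6.24 in null 67.5. ICL, the isocitrate lyase of the glyoxylate cycle, read 5.37, 5.36 and 5.29 in OE 67.1 against 6.20, 6.21 and 6.14 in null 67.1, and 5.01, 4.73 and 4.63 in OE 67.5 against 6.88, 6.69 and 6.58 in null 67.5. Its difference was -0.84 in couple 67.1 and -1.92 in couple 67.5. TIP1;2, an aquaporin of the vacuolar membrane, differed by -1.14 in couple 67.1 and by -2.45 in couple 67.5. Of these 5 genes 0 were among the first 5 by Spearman's rho and 3 after a further quantile normalization.

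**Figure D5:**
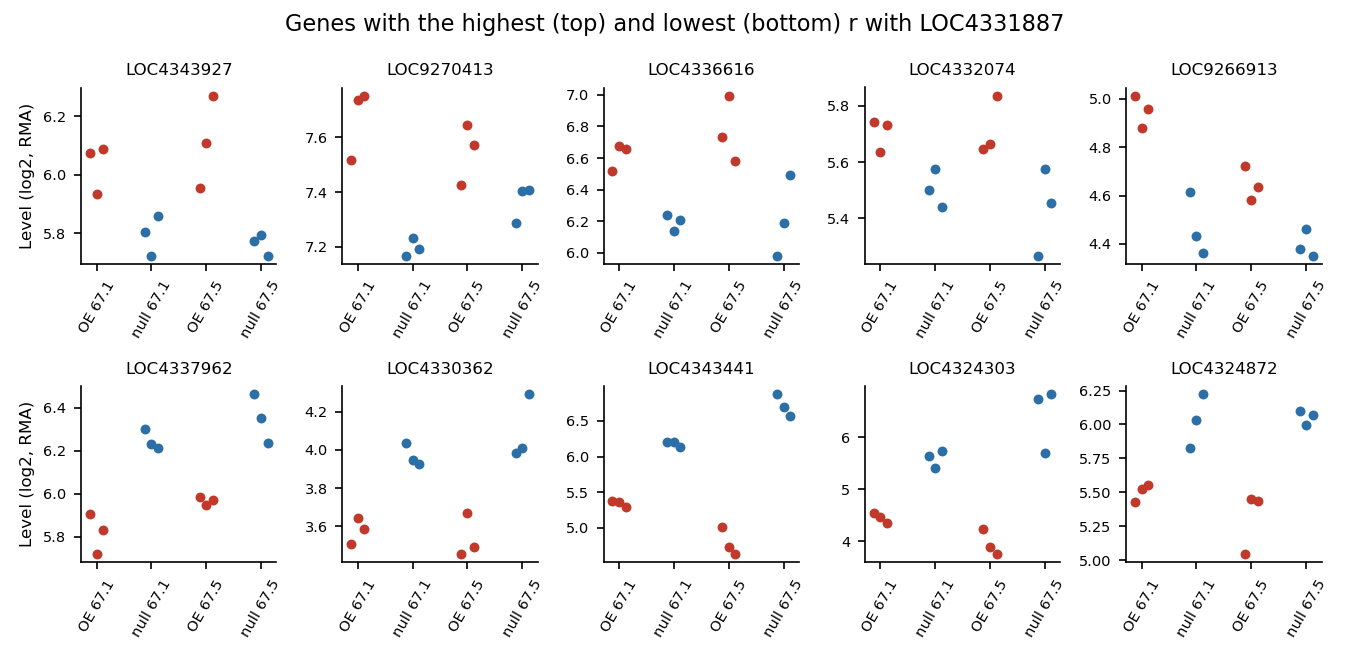
Log2 level after RMA (vertical axis, scaled to each gene) on each array (points) by line (horizontal axis) for the 5 genes with the highest r with LOC4331887 (top row) and the 5 with the lowest (bottom row). Red points are overexpressing lines and blue points null lines. In all 10 genes the red and blue points of a couple do not overlap, which follows from how the genes were chosen.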

How the data were processed

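Each sample's stem base RNA was made into biotinylated cRNA for 1 array, according to the protocols in the labels. The authors deposited log2 levels after RMA, per the submitters' processing notes. The RMA version and the genome build were not given in the sources used here. Such processing makes the arrays' distributions alike, so differences in total RNA cannot be seen. Array medians lay between 4.34 and 4.39. Precision is limited by how many arrays there are. Detection calls were not used here. Of 36643 probe sets, the platform annotation paired 24161 with 1 gene, 90 with several and 12392 with none.

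Groups followed the line names. A model with 4 line means was fitted to every probe set over the 12 arrays (limma 3.58.1 under R 4.3.3, with lmFit and eBayes and 8 residual degrees of freedom), two-sided, with Benjamini-Hochberg adjustment and a threshold of 0.05. The p-values rest on the spread between repetitions within lines, pooled over the 4 lines and moderated over all probe sets by eBayes. Each couple held 1 overexpressing and 1 null line, so the transgene and any other difference of sister lines cannot be told apart. With 3 arrays a side, the smallest p of an exact permutation test is 0.1. In simulated data with 36643 probe sets, changes of 1 between the null lines were recovered in 83% and changes of 2 in 100%, and between the overexpressing lines in 80% and 97%. False calls were 7 of 190 between the null lines and 8 of 185 between the overexpressing lines. The simulated noise was independent between arrays, with 1 spread per probe set in all lines and no effect shared by a repetition number. These rates therefore may not hold for the real arrays, whose counts leaned on single arrays.

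LOC4331887, its companion probe set and the lists were chosen with earlier results of these data known. Named in the text were the nearest 2 neighbours on each side, the 2 bHLH genes with the smallest p, the next 3 probe sets under the threshold of 3, and the 5 genes and 2 unannotated probe sets at each end of r. The second unannotated probe set at the high end was 16082321 (r = 0.874). A planned comparison with proteins of similar sequence was not analysed here. Alternatives were a further quantile normalization, annotated probe sets only, a filter on the mean, the repetition number as a block, a variance trend, array weights and leaving out each array.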

Additional observations from a re-analysis of the deposited data

How the results depend on the processing

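The overexpressing minus null differences of LOC4331887 and the companion probe set kept their direction, and moved by less than 1 SD between arrays, under each alternative run. For LOC4331887 the difference over both couples lay between 3.27 and 3.37 when each array was left out, between 3.30 and 3.49 in couple 67.1 and between 3.16 and 3.35 in couple 67.5. For the companion probe set these ranges were 6.67 to 6.74, 6.49 to 6.63 and 6.77 to 6.89. The difference between the couples ranged from 0.029 to 0.24 for LOC4331887 and from -0.35 to -0.19 for the companion probe set. The comparison of the null lines gave -0.057 to 0.16 for LOC4331887 (adjusted p 0.611 to 0.968), with the sign turned without null 67.1 replicate 2 (-0.057) or null 67.5 replicate 1 (-0.035), and 0.37 to 0.50 for the companion probe set (adjusted p 0.0547 to 0.402). No alternative brought a neighbouring gene or bHLH gene past the threshold.

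Counts over the whole table moved more. With annotated probe sets only, 45 passed over both couples, 83 in couple 67.5 and 201 between the overexpressing lines. With the filter on the mean, 64 passed between the null lines and 112 between the overexpressing lines, and with array weights 240 and 186. For the difference between the couples 7 passed, against 4 after a further quantile normalization and 11 with array weights. Without each array in turn the counts were 13 to 35 over both couples, 4 to 7 in couple 67.1, 11 to 36 in couple 67.5, 3 to 990 between the null lines, 15 to 305 between the overexpressing lines and 0 to 11 for the difference between the couples. The cause was not tested. The labels do not say that a repetition number marks a shared batch, and not every same-numbered pair in a couple correlated above 0.1, so the numbers were not taken as a pairing. The deviations of same-numbered arrays in a couple correlated at -0.11 to 0.35 (median 0.22, against -0.058 for different numbers), and 9 of 12 arrays correlated best with their own number, which is a hint of shared conditions from the data and not from the design. With the replicate block, 354 passed between the null lines and 1554 between the overexpressing lines. The block cannot move differences of line means in this balanced design. It changed no call of LOC4331887 or the companion probe set between the null or overexpressing lines. Under the alternatives that kept all arrays, LOC4331887 lay between 0.046 and 0.15 for the null lines and between 0.18 and 0.26 for the overexpressing lines.

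By Spearman's rho 2 of the 5 genes most like LOC4331887 and 0 of the 5 least like it were the same, and after a further quantile normalization 1 and 3.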

Other observations

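A few unannotated probe sets differed widely between repetitions of the null lines and less between those of the overexpressing lines. Probe set 16189314 read 2.57, 2.56 and 2.47 in OE 67.1 against 3.08, 4.21 and 7.23 in null 67.1, and 2.82, 2.40 and 2.38 in OE 67.5 against 7.58, 3.62 and 6.63 in null 67.5. Its difference over both couples was -2.86 ± 0.72 (log2, SE). Probe sets 16270679 and 16342606 were lower by over 2 in both couples as well. In null 67.5 repetition 2 had the lowest value of each of these (3.62 for 16189314, 8.29 for 16270679 and 9.34 for 16342606), and it also had the highest LOC4331887 level of that line (6.47). The same did not hold in null 67.1, where repetition 1 had the lowest values (3.08 for 16189314, 7.20 for 16270679 and 9.19 for 16342606) and repetition 2 the highest LOC4331887 level (6.52). The choice of these probe sets was made with their values in view, as the 3 that were lower by the most in both couples, and no gene name is given for them in the annotation used.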
